A study of Homo sapiens with 17 samples.

Results

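HR, THRSP, ANGPTL4, SLC2A4, ME1, CPT1A, BCL3, PCK1 and ATP2A2 are 9 of the 20033 protein-coding genes placed on chromosomes 1 to 22, X and Y by RefSeq. They form a group of genes long known to respond to thyroid hormone, mostly from liver, heart, fat or brain. Every deposited peak that overlapped one of their RefSeq spans, extended by 25 kb on each side, was collected and mapped by antibody and condition. This gave 235 of 266843 peaks from 8 lists, which merged into 76 separate sites where peaks of any list overlapped. Gene expression was not part of these files, so whether the 9 genes responded in these cells was not measured.

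The lists come from CUT&RUN, in which an antibody directs a nuclease to release the DNA around a bound protein, in Nthy-ORI, a line derived from normal human thyroid epithelium and immortalised with a viral oncogene. Cells were kept for 24 hours in hormone-stripped medium and then given 10 nM T3, the active thyroid hormone, or its vehicle, sodium hydroxide. The labels of the libraries give 6 hours of exposure, although the protocol text also names 24 hours. Antibodies to thyroid hormone receptor beta (TRβ), BRG1, ARID1A and PBRM1 each had 2 libraries with T3 and 2 with vehicle. The remaining library of the 17, made with IgG, was not analysed here. Each antibody and condition had 1 list, of peaks found in both libraries by the IDR method, which keeps peaks whose rank agrees between replicates. No test between conditions was therefore made, nothing in the labels says that the libraries came from separate cultures, and read depth is unknown from these files.

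Thyroid hormone receptors are nuclear receptors that sit on DNA with or without hormone, often as a partner of the retinoid X receptor. Their best known sites are pairs of the half-site AGGTCA. Without T3 they recruit corepressors, and T3 exchanges these for coactivators and chromatin remodelers. BRG1 is an ATPase of the SWI/SNF remodelers, which move nucleosomes. ARID1A belongs to the BAF form and PBRM1 to the PBAF form of that complex.

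The lists differ in length, and every count below has to be read against that. On the chromosomes used they held 7208 peaks for TRβ with T3 and 1412 with vehicle, 38140 and 9115 for PBRM1, 55938 and 64299 for BRG1, and 41710 and 49021 for ARID1A. All peaks had an irreproducible discovery rate of at most 0.05. Peaks at thyroid marker genes are occupancy and not expression, so they cannot show the identity of the cells. Of 8 such genes, among them PAX8, NKX2-1, FOXE1 and TSHR, 7 had a BRG1 peak within the same window with T3 and 6 with vehicle. These shares, 87.5% and 75%, were near the 79.8% and 82.8% of all protein-coding genes. At NKX2-1 the 1 peak of any list was of ARID1A with vehicle.

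Of the 9 genes, 7 had a TRβ peak with T3 and 1 had one with vehicle. Across all protein-coding genes the share with a TRβ peak was 39.3% with T3 and 11.1% with vehicle. The 7 genes were HR, ANGPTL4, SLC2A4, CPT1A, BCL3, PCK1 and ATP2A2, with 11 peaks in all. ANGPTL4 was the gene with a vehicle peak. THRSP and ME1 had no TRβ peak in either list. Of the 9, 6 had a TRβ peak in the T3 list and none in the vehicle list, whereas 30.9% of all protein-coding genes did, and 7 had more TRβ peaks with T3 than with vehicle, as did 36% of all genes. Per 100 kb of window the 9 genes held 1.24 TRβ peaks with T3 and 0.113 with vehicle, where all protein-coding genes held 0.616 and 0.117. Their windows were also denser in BRG1 peaks, 4.95 with T3 and 6.64 with vehicle, beside 3.53 and 4.06. For ARID1A the values were 4.50 and 5.18, beside 2.98 and 3.33, and for PBRM1 3.15 and 0.676, beside 2.74 and 0.651. When the TRβ T3 list was held to its 1412 highest peaks, the length of the TRβ vehicle list, 3 of the 9 genes had a TRβ peak with T3. The share of all genes was then 14.1%.

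**Figure D1:**
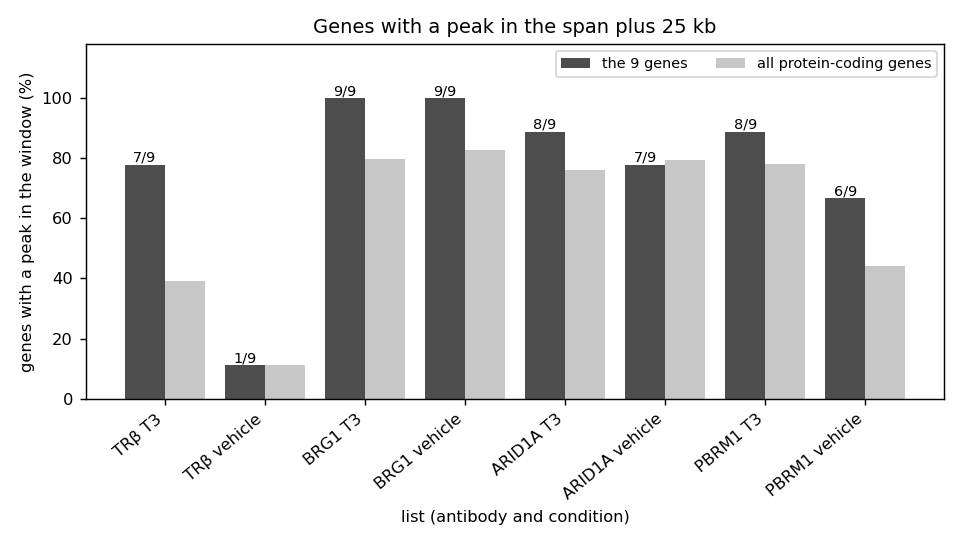
Share of genes with at least 1 peak in the gene span plus 25 kb (y axis, percent), for each antibody and condition (x axis). Dark bars are the 9 genes, labelled with their count, and pale bars are all 20033 protein-coding genes; the dark bar stands at 7 of 9 for TRβ with T3 and at 1 of 9 for TRβ with vehicle.

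BRG1 was listed at all 9 genes in both conditions, where 79.8% of all protein-coding genes had a peak with T3 and 82.8% with vehicle. ARID1A was listed at 8 of the 9 with T3 (76% of all genes) and at 7 with vehicle (79.5%). PBRM1 was listed at 8 of the 9 with T3 (78.1% of all genes) and at 6 with vehicle (44%). PCK1 was the gene without PBRM1 in either list, and ME1 the one without ARID1A with T3.

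**Figure D2:**
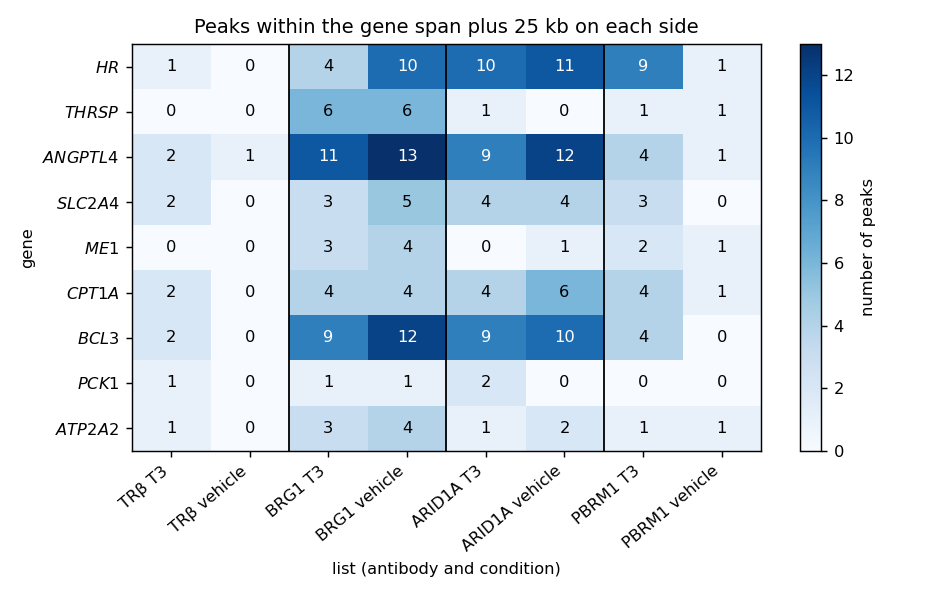
Number of peaks (cell text and colour) in the window of each gene (rows) for each list (columns, T3 left of vehicle for each antibody). TRβ counts are 0 to 2 per gene, and the highest counts are those of BRG1 and ARID1A at HR, ANGPTL4 and BCL3.

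The sequences at the start of a gene are shown for those members whose annotated start, or promoter window, lay under a TRβ peak. RefSeq promoter entries (GRCh38.p14, 250 bases before to 50 after a start) were matched for 6 of the 9 genes, with 7 entries in all. HR, SLC2A4 and PCK1 had none. The TRβ T3 list overlapped 2 of the 7 entries, both of ATP2A2 and both through the same peak. Of the 35116 entries of all genes it overlapped 11.1%. The TRβ vehicle list overlapped none of the 7 (1.88%). BRG1 overlapped 5 with T3 (42.8%) and 5 with vehicle (46.4%), ARID1A 4 (36.5%) and 3 (33.2%), and PBRM1 3 (41.9%) and 3 (14.8%). In each of these lists the ATP2A2 entries were again both reached by a single peak. A TRβ peak also covered the lower end of the BCL3 span, upstream of its entry. Capitals mark GGGCGG or its reverse complement CCGCCC, the GC box bound by factors of the Sp family. The motif was chosen after the sequences had been seen.
ATP2A2 first start, chr12:110280366-110280665, plus strand: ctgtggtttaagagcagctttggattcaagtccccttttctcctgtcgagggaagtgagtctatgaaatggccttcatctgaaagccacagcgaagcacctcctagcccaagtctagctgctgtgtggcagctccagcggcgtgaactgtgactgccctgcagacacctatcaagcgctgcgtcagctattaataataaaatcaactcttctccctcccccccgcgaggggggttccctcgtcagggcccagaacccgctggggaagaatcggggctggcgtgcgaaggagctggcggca
ATP2A2 second start, chr12:110280997-110281296, plus strand: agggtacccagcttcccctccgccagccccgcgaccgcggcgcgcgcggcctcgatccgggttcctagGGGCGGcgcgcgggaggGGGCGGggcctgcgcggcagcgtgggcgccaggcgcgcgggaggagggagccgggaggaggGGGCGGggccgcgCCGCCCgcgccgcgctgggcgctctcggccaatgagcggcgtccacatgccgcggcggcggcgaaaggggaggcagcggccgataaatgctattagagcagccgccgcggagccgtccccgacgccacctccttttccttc
BCL3, chr19:44748458-44748757, plus strand: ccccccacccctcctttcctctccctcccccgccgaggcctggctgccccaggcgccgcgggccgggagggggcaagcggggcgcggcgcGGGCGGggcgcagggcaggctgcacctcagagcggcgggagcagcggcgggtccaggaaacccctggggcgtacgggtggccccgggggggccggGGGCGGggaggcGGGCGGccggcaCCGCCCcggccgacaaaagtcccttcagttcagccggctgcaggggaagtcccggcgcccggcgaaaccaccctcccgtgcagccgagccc

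The second ATP2A2 entry and the BCL3 entry held 4 GC boxes each, and the first ATP2A2 entry none. Their content of G and C was 78% and 80%, against 57% in the first ATP2A2 entry. Of the 7 entries of the 9 genes, 4 held a GC box, close to the 45% of all entries that did. The half-site AGGTCA, read on both strands, was in none of the 7 entries and in 13.8% of all entries. The direct repeat of AGGTCA with 4 bases between its copies, also read on both strands and always holding the half-site, was in none of the 7 and in 0.0199% of all entries. These letters were sought only in these windows, and most TRβ peaks of the 9 genes lay elsewhere.

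ATP2A2 (chromosome 12, 110280616 to 110351093, plus strand) encodes the calcium pump of the sarcoplasmic and endoplasmic reticulum, whose heart form is induced by thyroid hormone in rodents. The single TRβ T3 peak (110280631 to 110281692; all positions are in hg38) covered its second start, with its midpoint at -86 bases from it. The authors' signal value was 10.3, of which 4.49 and 5.80 came from the 2 libraries, and it stood at percentile 52.3 of the TRβ T3 list. A signal value is used here only to rank a peak within its own list. BRG1, ARID1A and PBRM1 were listed over the same peak in both conditions, the one TRβ T3 peak of the 9 genes of which that held. The PBRM1 peak there had a value of 21.2 with T3 (percentile 89.2 of its list) and 17.3 with vehicle (percentile 64.2 of its list). The vehicle list of TRβ had its nearest peak 418178 bp away from the gene.

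BCL3 and HR encode regulators of transcription. BCL3 (chromosome 19, 44747705 to 44760044, plus strand) belongs to the IκB family and acts as a coactivator for NF-κB. Its stronger TRβ T3 peak (44747121 to 44748097) lay across the lower end of its span, with a signal value of 14.8, library values of 7.82 and 6.94 and percentile 87.2. That peak overlapped BRG1 and ARID1A peaks of both conditions and a PBRM1 peak of the T3 list. The BRG1 vehicle and ARID1A T3 peaks with the highest percentiles at any of the 9 genes lay here. A BRG1 vehicle peak of 49.0 (44745293 to 44749305, percentile 99.1) ran over it, and so did an ARID1A T3 peak of 35.4 (44745970 to 44748370, percentile 99.3). Further upstream, between 44736727 and 44744182, BRG1 and ARID1A were listed in both conditions and PBRM1 with T3, without TRβ. The second BCL3 peak of TRβ (44770405 to 44770917) had a signal value of 8.85, libraries of 4.69 and 4.16, and percentile 18.9. It lay 10361 bp beyond the span and nearer to CBLC, 6952 bp away. In the BCL3 window BRG1 had 9 peaks with T3 and 12 with vehicle, ARID1A 9 and 10, and PBRM1 4 and 0.

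HR, hairless (chromosome 8, 22114419 to 22131052), is a corepressor that binds thyroid hormone receptors, and in rodent brain its gene is a direct target of T3. Its TRβ T3 peak (22108390 to 22108997) was 5422 bp outside the span and inside the neighbouring gene NUDT18. The signal value was 10.4, with 5.41 and 4.96 in the libraries and percentile 53.7. It overlapped BRG1 and PBRM1 peaks with T3. No vehicle peak of BRG1 reached it, although one lay within the same merged site, at 22109427 to 22109833. The HR span itself held no BRG1 peak with T3 and 3 with vehicle, with values of 14.4, 13.2 and 8.74. PBRM1 showed the opposite order there, with 2 T3 peaks over the span and none with vehicle. The larger one (22129586 to 22132525) had a value of 36.5, libraries of 15.4 and 21.0, and percentile 99.2 of the PBRM1 T3 list, the highest of the 28 PBRM1 T3 peaks at the 9 genes. It ran across the upper end of the span and over HRURF, named for the upstream open reading frame of HR. Over the whole HR window PBRM1 had 9 peaks with T3 and 1 with vehicle, and BRG1 had 4 and 10.

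**Figure D3:**
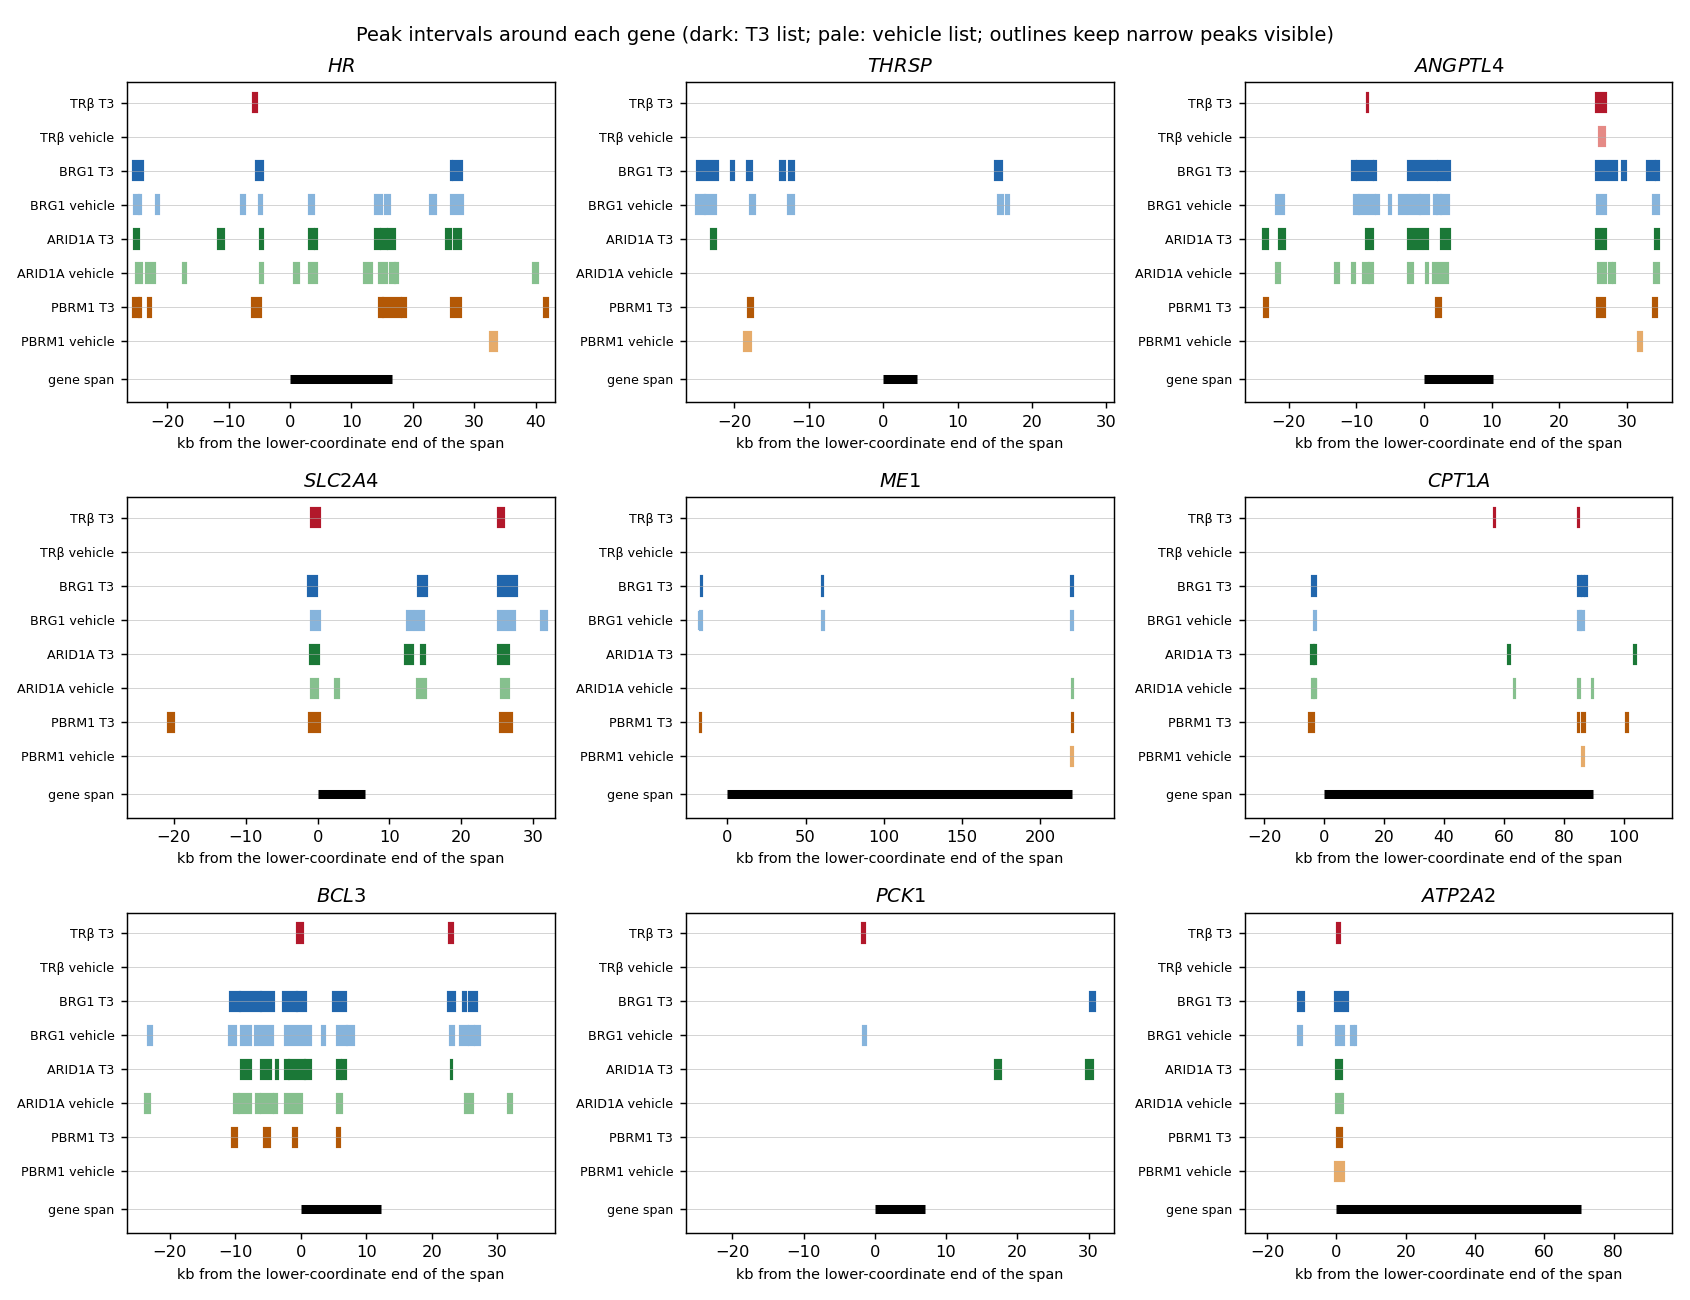
Peak intervals (bars, to scale apart from a thin outline) along each gene's window, in kb from the lower-coordinate end of the span (x axis), for each list (rows, T3 above vehicle). The black bar is the gene span; TRβ bars are absent from THRSP and ME1, and the only pale TRβ bar is at ANGPTL4, beyond the gene.

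CPT1A and ANGPTL4 act in fat breakdown and fat transport. CPT1A (chromosome 11, 68754620 to 68844277, minus strand) encodes the carnitine palmitoyltransferase that admits long-chain fatty acids to mitochondria, and in the rat gene the promoter and the first intron together are known to carry the T3 response. Both of its TRβ T3 peaks lay inside the span. The one nearer to the start (68839419 to 68839758) had its midpoint 4689 bases downstream of it, a signal value of 9.19, library values of 5.60 and 3.59, and percentile 30.1. It overlapped BRG1 peaks of both conditions, ARID1A with vehicle and PBRM1 with T3. The other peak (68811175 to 68811579) lay 32900 bases downstream of the start with a value of 8.41, library values of 4.45 and 3.95, and percentile 7.87. It was the weakest of the 11 and the one that overlapped no remodeler list, as 21% of all TRβ T3 peaks did. The CPT1A promoter entry overlapped no peak of any list, and an ARID1A vehicle peak (68844040 to 68844199, percentile 3.15) came nearest to it.

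ANGPTL4 (chromosome 19, 8364155 to 8374370, plus strand) encodes a secreted inhibitor of lipoprotein lipase. It was the gene with TRβ in both conditions, at a site 15167 bp beyond the ANGPTL4 span that lay across the lower end of the span of a neighbour, RAB11B (8390360 to 8404434). The T3 peak (8389537 to 8391073) had a signal value of 21.1, libraries of 13.6 and 7.48, and percentile 96.7 of its list, the highest of the 11. The vehicle peak (8389953 to 8390897) had a value of 19.1, libraries of 10.2 and 8.85, and percentile 90.3 of its list. BRG1 and ARID1A were listed there in both conditions and PBRM1 with T3. A second TRβ T3 peak (8355699 to 8355897), upstream of ANGPTL4 with its midpoint at -8357 bases from the start, had a value of 8.88, libraries of 4.28 and 4.599, and percentile 20.7. It lay under BRG1 and ARID1A peaks of both conditions, among them a BRG1 vehicle peak of 43.7 (8354572 to 8356964), and PBRM1 was not listed there. The ANGPTL4 start itself lay under a BRG1 peak in both conditions, and no TRβ or PBRM1 peak covered it. With T3 this was 1 peak (8361809 to 8364845) with a value of 29.5 and percentile 94.8 of its list. With vehicle the same stretch was split into 2 peaks, 1 over the start (8363544 to 8364838) with a value of 12.6 and percentile 51.5, and 1 just upstream (8361747 to 8363534) with a value of 29.0 and percentile 92.7.

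THRSP and ME1 belong to fat synthesis, and both are induced by T3 in rodent liver. THRSP (chromosome 11, 78063861 to 78068351, plus strand) is a nuclear regulator of lipogenic genes. ME1 (chromosome 6, 83210402 to 83431051, minus strand) is the cytosolic malic enzyme, a source of NADPH. The nearest TRβ T3 peak was 242554 bp from THRSP and 142235 bp from ME1. The nearest TRβ vehicle peak was closer to THRSP, at 119733 bp, and farther from ME1, at 2636420 bp. BRG1 was listed 6 times in the THRSP window in each condition, but none of its peaks overlapped the gene, and the THRSP promoter entry met no peak of any list. The nearest one was 10573 bp beyond the span with T3 and 10901 bp with vehicle. The strongest, 22207 bp upstream (78038826 to 78041654), had a value of 30.5 and percentile 95.4 of the BRG1 T3 list. PBRM1 had 1 site in both conditions. Its value was 8.85 with T3 (percentile 4.12 of its list) and 11.4 with vehicle (percentile 15.4 of its list). THRSP lies within the annotated span of the readthrough gene NDUFC2-KCTD14. ME1 had the opposite arrangement. Its start was overlapped by BRG1 and PBRM1 in both conditions and by ARID1A with vehicle, and the PBRM1 peak there had a value of 13.9 with T3 (percentile 62.9 of its list) and 17.8 with vehicle (percentile 67.0). No other PBRM1 vehicle peak at the 9 genes stood at a higher percentile. The ME1 window, of 270650 bp, was the longest of the 9 and had 3 BRG1 peaks with T3 and 4 with vehicle.

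SLC2A4 and PCK1 handle glucose. SLC2A4 (chromosome 17, 7281718 to 7288257) encodes the insulin-responsive glucose transporter of muscle and fat. A TRβ T3 peak (7280838 to 7282085) lay across the lower end of its span, with a signal value of 16.3, libraries of 5.39 and 10.95, and percentile 91.4. BRG1 and ARID1A were listed over it in both conditions and PBRM1 with T3, with values of 13.8 for PBRM1, 18.1 for ARID1A and 12.7 for BRG1 in the T3 lists. The second TRβ T3 peak (7306876 to 7307706) had a signal value of 9.07, libraries of 5.15 and 3.91, and percentile 27.2. It was 18619 bp beyond the span, across the lower end of the span of EIF5A (7306999 to 7312463). The same 5 lists were over it. PBRM1 had 3 peaks in the SLC2A4 window with T3 and 0 with vehicle. Of the TRβ T3 peaks counted at the 9 genes, this second one was the farthest from its gene. The nearest TRβ T3 peak left out by the limit of 25 kb was 28571 bp from ANGPTL4 (8334871 to 8335584, signal value 9.99).

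PCK1 (chromosome 20, 57561110 to 57568121) encodes the cytosolic phosphoenolpyruvate carboxykinase, which commits carbon to glucose synthesis in liver. Its TRβ T3 peak (57559296 to 57559719) was 1391 bp outside the lower end of the span, with a value of 10.1, libraries of 6.17 and 3.90, and percentile 49.2. BRG1 with vehicle was the one remodeler list over it (57559485 to 57559831, value 8.09), and the BRG1 T3 list had no peak there. PCK1 had the fewest peaks of the 9 genes, 5 in all lists together at 3 sites, and no other protein-coding gene within its window.

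**Figure D4:**
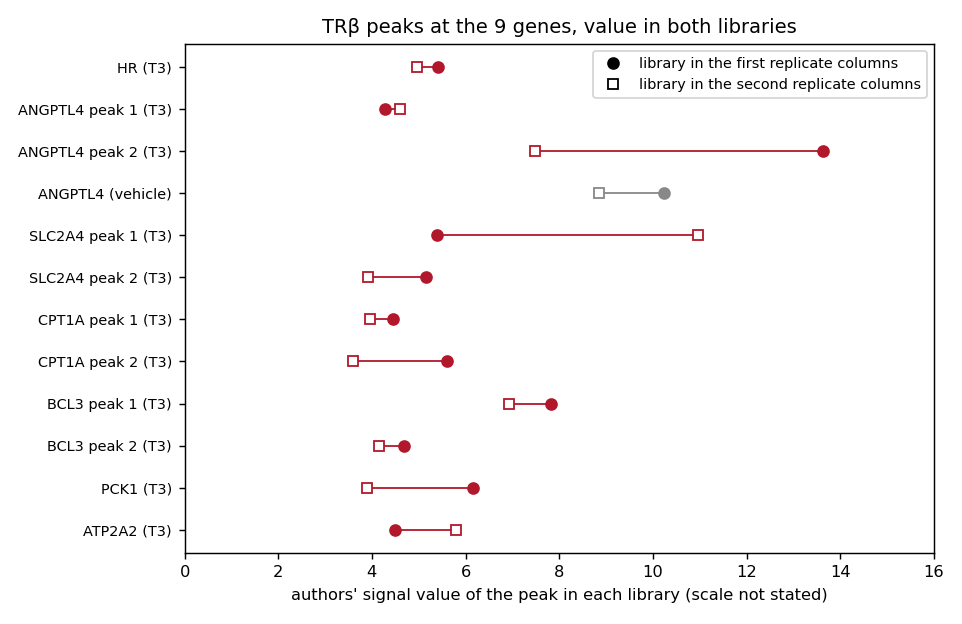
The authors' signal value (x axis, scale not stated) of each TRβ peak at the 9 genes in both libraries, filled circles and open squares, joined by a line (red for T3, grey for vehicle). The T3 values run from 3.59 to 13.6, and the widest gaps between libraries are at the farther ANGPTL4 peak and the nearer SLC2A4 peak.

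Across the 11 TRβ T3 peaks, 5 overlapped the gene itself and 6 lay outside it. Of the 6, 3 overlapped another protein-coding gene, 1 within it (NUDT18) and 2 across its lower end (RAB11B and EIF5A), and 1 more was nearer to another gene. The 6 genes that kept a TRβ T3 peak when each peak was counted only for its nearest protein-coding genes were ANGPTL4, SLC2A4, CPT1A, BCL3, PCK1 and ATP2A2, beside 25.9% of all genes by that rule. An irreproducible discovery rate of at most 0.01 was met by 5 of the 11, and by 3417 of the 7208 peaks of the whole list. Those 5 lay 1 each at HR, ANGPTL4, SLC2A4, BCL3 and ATP2A2. By genes this was 5 of the 9, beside 25.4% of all genes with a TRβ T3 peak at that limit. The library values were higher in the first replicate columns for 8 of the 11, a count not made for the whole T3 list. Of the 11, 10 had no TRβ vehicle peak over them, as did 93% of the whole T3 list, a share close to that of the 9 genes. The 1 vehicle peak had a T3 peak over it, while 67.1% of the whole vehicle list had none.

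Remodeler lists over these 11 peaks were set beside those over all TRβ T3 peaks. BRG1 with T3 was over 9 of the 11 (68.2% of all TRβ T3 peaks) and BRG1 with vehicle over 9 (70.5%). ARID1A was over 7 with T3 (66.3%) and 7 with vehicle (65%). PBRM1 was over 7 with T3 (62.4%) and 1 with vehicle (23%). All 3 proteins were listed with T3 over 5 of the 11 (53.7%). None of these differences was tested, and 11 peaks are few for such shares.

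Conditions were then compared over all remodeler peaks of the 9 windows. BRG1 had fewer peaks with T3 than with vehicle at 6 genes and equal numbers at 3, 44 against 59 in all, and 42.3% of all protein-coding genes had fewer. No gene of the 9 had more, against 19.8% of all genes. The ratio of BRG1 peaks, T3 to vehicle, was 0.746 at the 9 genes and 0.870 in the whole lists. Peak numbers also depend on how a stretch is split into peaks. Within the windows, BRG1 peaks covered more bases with T3 at THRSP, ANGPTL4, CPT1A and PCK1, and fewer at the other genes. At CPT1A they covered 3759 bp with T3 and 2118 with vehicle, and at HR 3998 and 7953. Of the 44 BRG1 T3 peaks, 7 had no vehicle peak over them (23.3% of the whole list), and of the 59 vehicle peaks 20 had no T3 peak over them (29.3%). Of the BRG1 sites, 28 were in both lists, 6 in the T3 list alone and 19 in the vehicle list alone. Sites were merged only in the 9 windows, so these site counts have no share over all genes beside them. ARID1A had fewer peaks with T3 at 6 genes and more at 2, 40 against 46 in all (40.9% of all genes had fewer and 25.7% more). THRSP and PCK1 had ARID1A with T3 and none with vehicle (4.73% of all genes), and ME1 had it with vehicle and none with T3 (8.2%). Of the 40 ARID1A T3 peaks 13 had no vehicle peak over them (46.5% of the list), and of the 46 vehicle peaks 20 had no T3 peak over them (51.6%). That order turned at a rate of at most 0.01, with 26 peaks with T3 and 20 with vehicle, and with lists of equal length, with 40 and 39.

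PBRM1 had more peaks with T3 at 6 genes and equal numbers at 3, 28 against 6 in all, and 69.5% of all genes had more and 1.41% fewer. SLC2A4 and BCL3 had PBRM1 with T3 and none with vehicle, as did 34.8% of all genes. Of the 28 PBRM1 T3 peaks 23 had no vehicle peak over them (79.2% of the list), and of the 6 vehicle peaks 2 had no T3 peak over them (24.9%). PBRM1 sites were in both lists 4 times, in the T3 list alone 21 times and in the vehicle list alone 2 times. The ratio of PBRM1 peaks at the 9 genes, 4.67, was close to that of the whole lists, 4.18. With the T3 list held to the 9115 highest peaks the order turned, with 4 PBRM1 peaks with T3 and 6 with vehicle. They lay at 3 genes with T3 (47% of all genes) and 6 with vehicle (44%). No site was present in all 8 lists, and 38 of the 76 were in 1 list. The TRβ vehicle list had 1 peak in these windows, so no more than 1 site could have been in all 8. Neither these counts nor those of the PBRM1 sites have a share over all genes, since sites were merged only in the 9 windows.

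**Figure D5:**
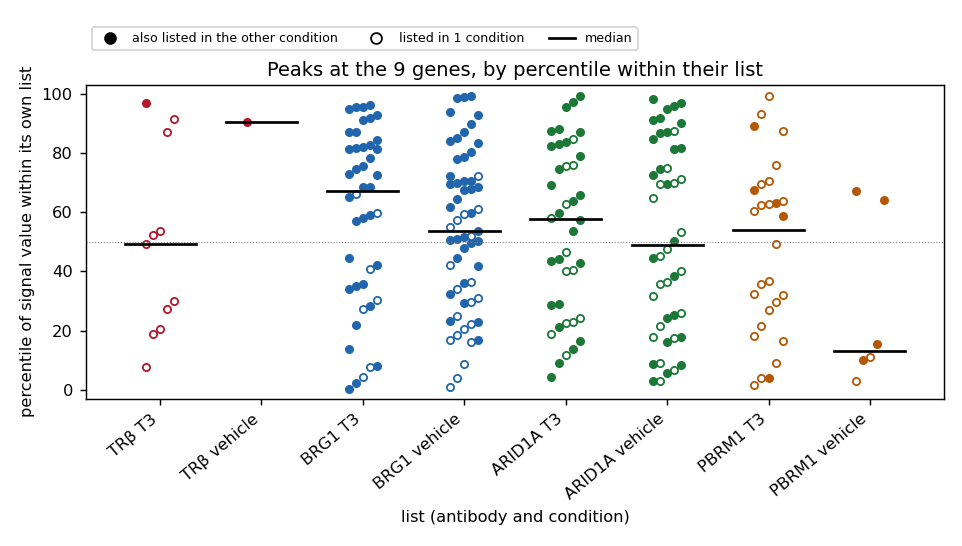
Percentile of each peak's signal value within its own list (y axis) for the peaks at the 9 genes (points), by list (x axis). Filled points overlap a peak of the other condition and open points do not; black lines are medians, which lie at 49.2 for TRβ with T3, 67.3 for BRG1 with T3 and 13.3 for PBRM1 with vehicle, and the dotted line is the middle of a list.

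Peaks at the 9 genes were of middling strength within most lists. Their median percentile was 49.2 for TRβ with T3, 67.3 for BRG1 with T3 and 53.6 with vehicle, 57.6 for ARID1A with T3 and 48.9 with vehicle, and 53.9 for PBRM1 with T3. The 6 PBRM1 vehicle peaks had a median percentile of 13.3. Those at the ME1 and ATP2A2 starts stood at percentiles 67.0 and 64.2, and the other 4 ranged between 3.03 and 15.4. Median numbers per gene were 1 TRβ T3 peak at the 9 genes and 0 at all protein-coding genes, 4 and 3 BRG1 T3 peaks, 4 and 2 ARID1A T3 peaks, and 3 and 2 PBRM1 T3 peaks. Median window length was 62340 bp for the 9 genes and 74130 bp for all.

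A further 22 genes known to respond to thyroid hormone in some tissue were counted in the same way. They included KLF9, DIO1, THRB, UCP1, PPARGC1A, MYH6, TSHB and TRH. Of the 22, 9 had a TRβ peak with T3 and 4 with vehicle, 40.9% and 18.2%, beside the 39.3% and 11.1% of all genes. Among those with the highest TRβ T3 signal values were FASN, the fatty acid synthase (16.5), ACACA, an acetyl-CoA carboxylase (13.5), and HCN2, a pacemaker channel gene (12.4). FASN had 2 TRβ vehicle peaks, HCN2 1 and ACACA 0. UCP2 and UCP3, which are neighbours, both had their highest TRβ T3 value at 12.2, from a single peak in the windows of both.

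For each of the 7 genes with TRβ, the protein-coding gene elsewhere with the most similar 8 peak counts was found by the sum of absolute differences. For CPT1A it was INHBC, at a sum of 1. ZNF497, closest in window length of 3 genes at a sum of 1, stood nearest to SLC2A4. PCK1 and ATP2A2 had 19 and 15 genes tied at a sum of 1, of which APOBEC3H and KNL1 were closest in window length, and KNL1 itself had no TRβ peak. For HR the gene was LZTR1, 1 of 2 at a sum of 3. ANGPTL4 and BCL3 had SP2 and TUSC2 at a sum of 4. These sums describe counts over 8 lists and carry no test.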

How the data were processed

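CUT&RUN libraries of Nthy-ORI cells (500000 cells per reaction, per the labels' protocols) were prepared for 4 antibodies and 2 conditions, with 2 libraries each, and 1 IgG library, not analysed here. Per the submitters' processing notes, the tools were MACS2, Bowtie2, Trim Galore and CASAVA 1.7, and the build was hg38. Their parameters, the role of the IgG library and the depth were not given here. The deposited lists follow the IDR layout without a header. Their signal value is the sum of the values of 2 libraries, which the authors' lists also give singly. The deposited score is a scaled irreproducible discovery rate, and its −log10 is a deposited column from which rates were taken. The lists do not tie these values to the replicate numbers of the labels, and 16 deposited summit columns were not used. A peak's interval is the union over its 2 libraries.

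The 9 genes, the other gene lists and all windows were chosen with earlier results of these data known. Spans came from RefSeq (GRCh38.p14, the build of hg38), which gives no exons here, so exonic and intronic positions are not known. A peak was shared between lists where at least 1 bp overlapped. No test was made: each antibody and condition had 1 list, and only 2 libraries stood behind it, so counts are given beside all protein-coding genes. Genes named were the 9, the 4 of the further list with the highest TRβ T3 value, neighbours of TRβ peaks and the nearest genes by peak counts, and some others were named after their values were seen. Of the 4, 1 is not reported here. Overlap counting was tested on simulated intervals. Python 3.11.15, pandas 2.3.3, numpy 2.4.6 and matplotlib 3.10.9 were used.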

Additional observations from a re-analysis of the deposited data

How the results depend on the processing

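No paired analysis was possible because each antibody and condition had 1 list and the lists carry no replicate numbers. Intervals of 1 library at a time (leave-one-out) left the count of genes with a TRβ T3 peak at 7 to 7. Every peak found in both libraries was kept, so this setting could move peak edges only and does not measure agreement between libraries. Other windows moved most counts, through fewer or more peaks by construction. Shares of all protein-coding genes stand in parentheses. On the gene span alone, genes with a peak numbered 4 for TRβ T3 (22.5%), 0 for TRβ vehicle (5.06%), 5 for BRG1 T3 (65.4%) and 3 for PBRM1 vehicle (27.7%); TRβ T3-only peaks were 5, shared ones 0 and PBRM1 T3-only peaks 6; and BRG1, ARID1A and PBRM1 with T3 were over 4, 3 and 4 TRβ T3 peaks. At 5 kb the TRβ vehicle and PBRM1 vehicle genes were 0 (6.8%) and 3 (32.6%), the peaks 6, 0 and 11, and the overlaps 4, 3 and 4. At 50 kb TRβ vehicle genes were 2 (15.3%), the peaks 18, 3 and 41, and the overlaps 17, 13 and 14. At 100 kb they were 3 (21.9%), then 27, 3 and 65, then 23, 19 and 18. At an IDR of at most 0.01 TRβ vehicle and PBRM1 vehicle genes were 0 (2.22%) and 1 (14.7%), the peaks 5, 0 and 14, and the overlaps 5, 4 and 4. The difference of ARID1A peaks, T3 minus vehicle, turned to 6. With T3 and vehicle lists of equal length, TRβ T3 and PBRM1 T3 genes were 3 (14.1%) and 3 (47%), TRβ and PBRM1 T3-only peaks 2 and 3, and the overlaps 3, 3 and 1. The differences turned to 1 for ARID1A and -2 for PBRM1. A reciprocal overlap of 50% left BRG1 and PBRM1 over 4 and 3 TRβ T3 peaks. That stricter rule was not applied to all TRβ T3 peaks, so whether their shares fell alike is not known. Counting peaks only for their nearest genes, a setting chosen after seeing the data, gave 0 TRβ vehicle (5.95%) and 3 PBRM1 vehicle genes (30.1%), 0 shared TRβ and 11 PBRM1 T3-only peaks, and overlaps of 5, 4 and 4. The order of BRG1 peaks (fewer with T3) and TRβ peaks (more with T3) held under every setting that could change these totals. The settings on overlap between peaks could not change them, and the leave-one-out intervals kept the same peaks. Other windows kept the unequal lengths of the lists. With lists of equal length TRβ had 3 peaks with T3 and 1 with vehicle, and BRG1 44 and 56. Of 240 further comparisons of single counts with a setting, 135 moved and 3, given above, turned.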
